A study of Caenorhabditis elegans with 6 samples.

Results

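The spindle assembly checkpoint and the RZZ-Spindly module of the kinetochore are represented here by 9 genes of Caenorhabditis elegans, chosen by name: spdl-1, rod-1, czw-1, zwl-1, bub-1, bub-3, mdf-1, mdf-2 and san-1. They are 9 of the 46748 genes in the deposited table, and all 9 passed the filter on low counts that left 15404 genes for testing. Messenger RNA of whole adults was sequenced from 3 strains, with 2 libraries each of 100 gravid hermaphrodites grown at 20 °C. N2 is the standard laboratory strain. The strains named WT (OD1463) and SIN (OD1175) both have the csr-1(tm892) deletion in 2 copies, together with transgenes, and their worms were sorted by movement from the offspring of heterozygous mothers carrying a balancer. The abbreviation SIN is not explained in the labels. As far as the study is known, the SIN transgene gives a CSR-1 protein that cannot cut RNA and the WT transgene the normal protein. Nothing in the labels says that the 2 libraries of a strain came from separate cultures, so the p-values measure only the spread between libraries, which may be technical.

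During cell division the kinetochore, a protein platform on each chromosome, binds spindle microtubules, and the checkpoint delays chromosome separation while any kinetochore is still unattached. ROD-1, ZWL-1 and CZW-1, the worm counterparts of Rod, Zwilch and Zw10, form the RZZ complex, which recruits Spindly (SPDL-1); Spindly in turn brings the motor dynein to the kinetochore. BUB-1 is a kinase that binds the kinetochore scaffold with its partner BUB-3 and is a platform for MDF-1, the worm Mad1, which turns MDF-2 (Mad2) into its active form; MDF-2, with SAN-1 (the worm Mad3) and BUB-3, inhibits the activator of the anaphase-promoting complex. In adult hermaphrodites dividing cells are found in the germ line and in the embryos held in the uterus. CSR-1 is a germline Argonaute protein guided to transcripts by 22G RNAs, small antisense RNAs that begin with G.

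The libraries held between 33739391 and 44962816 counted reads, and each member had at least 1674 reads in every library. Over all genes, libraries of a strain differed by more than counting error (chi-square per degree of freedom of at least 8.86). For some members they lay much closer, such as mdf-2 in N2 (122.1 and 122.5 CPM). The transcript of csr-1 was at 3110 ± 280 CPM in SIN (SD, n = 2), beside 649 ± 19 CPM for WT and 461 ± 22 CPM for N2. Reads of a transgene may be counted with it, which no source here states. CPM here are counts scaled to library size with the TMM method. N2 replicate 1 lay apart from the other 5 libraries on the second principal component of log2 CPM (26.6% of the variance). Markers of germ line, intestine, muscle, neurons and embryos had reads in every library, as had 2 of 3 hypodermal markers; rol-6 was at 0 in at least 1 library. The 4 germline markers (gld-1, pgl-1, htp-3 and rme-2) summed to 2633 to 3051 CPM over the 6 libraries. That sum hid opposite changes in SIN versus WT. By the test described below, gld-1 fell (log2 fold change -0.52) and htp-3 rose (0.48), while pgl-1 (0.21) and rme-2 (-0.14) did not pass. In whole worms, fewer cells of a type and less RNA per cell cannot be told apart.

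Of the 9 genes, 3 rose in SIN relative to WT (spdl-1, bub-1 and mdf-1), czw-1 fell, and 5 did not pass the test. Changes past the test (edgeR's quasi-likelihood test, Benjamini-Hochberg adjusted p below 0.05 over all 15404 genes) were common in this comparison: 25.5% of tested genes were called, 12.1% as rises and 13.3% as falls. The median log2 fold change of the 9 genes was -0.04, beside 0.04 over all tested genes. Between them the members thus ranged from a 4.37-fold rise to a 1.31-fold fall, with no common direction. The split of all calls into rises and falls depended on scaling: rises were 47.7% of the calls with TMM and 65.5% with upper-quartile scaling, under which the median over all genes became 0.17.

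**Figure D1:**
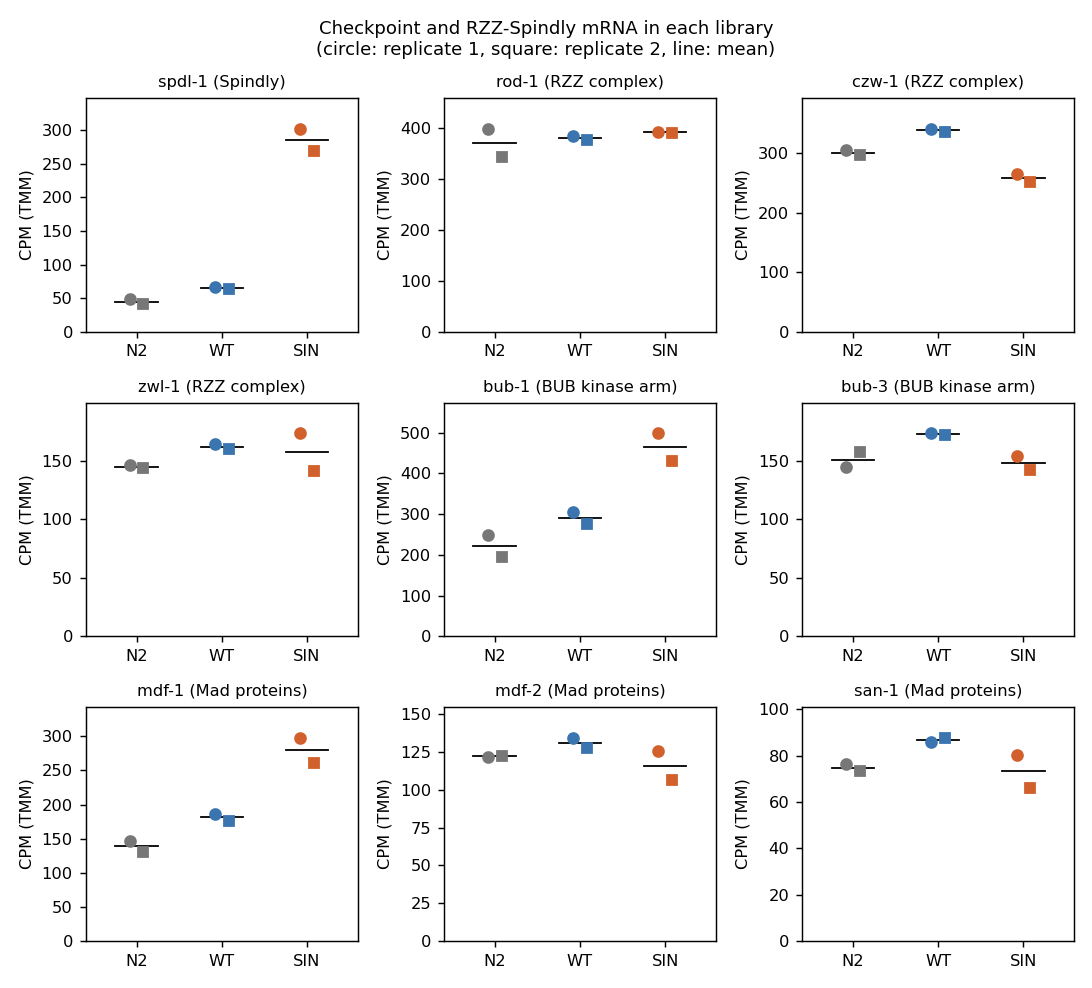
Level of each of the 9 transcripts in CPM (y axis, from 0) in the N2, WT and SIN libraries (x axis), with replicate 1 as a circle, replicate 2 as a square and the group mean as a line. The SIN libraries stand clearly above the others for spdl-1 (270 and 302 CPM), bub-1 and mdf-1, and below the others for czw-1.

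Spindly stood out among the members. Expression of spdl-1 (chromosome II, 7781566 to 7783351, plus strand, WBcel235) was 48.4 and 41.4 CPM in the N2 libraries, 67.0 and 64.0 CPM in the WT libraries, and 302 and 270 CPM in the SIN libraries. Both SIN libraries were far above both WT libraries, which were in turn above both N2 libraries. SIN exceeded WT 4.37-fold, a log2 fold change of 2.13 ± 0.11 (SE; 95% interval 1.86 to 2.39; adjusted p = 0.000205). The call held in all 12 alternative settings tried, with log2 fold changes from 2.04 to 2.26. Among the 1871 genes that rose, 605 had a larger fold change than spdl-1, so a rise of this size was not unusual in SIN. SIN exceeded N2 by 6.37-fold (log2 fold change 2.67 ± 0.11, adjusted p = 7.01e-05).

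The RZZ subunits, which act with Spindly at the kinetochore, did not share its rise. The largest subunit gene, rod-1 (chromosome IV, 7478452 to 7485327), was at 398 and 343 CPM for N2, 385 and 376 CPM for WT, and 392 and 390 CPM in SIN. Those SIN values lay within the N2 range and only slightly above WT, with a log2 fold change over WT of 0.04 and a 95% interval of -0.20 to 0.28 (adjusted p = 0.804). The Zwilch gene zwl-1 (chromosome I, 2402230 to 2409999) was at 146 and 144 CPM for N2, 164 and 160 CPM for WT, and 173 and 141 CPM in SIN. Its SIN libraries lay on either side of the WT libraries, and the interval of the log2 difference was -0.31 to 0.22 (adjusted p = 0.81). A rise over WT as large as that of spdl-1 was thus outside both intervals.

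The Zw10 gene czw-1 (chromosome IV, 7943614 to 7946825) was the member that fell. It was at 305 and 297 CPM for N2, 341 and 336 CPM for WT, and 265 and 252 CPM in SIN, so that the 3 strains did not overlap and WT was highest. SIN was 1.31-fold below WT (log2 fold change -0.39 ± 0.08, adjusted p = 0.019). Against N2 the difference was smaller and did not pass (-0.22 ± 0.08, adjusted p = 0.0913), except as a fall without N2 replicate 2 (-0.24, adjusted p = 0.0363). The fall from WT was no longer past the test with upper-quartile scaling (log2 fold change -0.25, adjusted p = 0.0533). On chromosome IV czw-1 lies 10441 bases from csr-1, the gene deleted in both WT and SIN. Also on it are rod-1, 471939 bases from csr-1, and mdf-2, 5316141 bases away. Whether this position has a part in the fall was not tested.

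Of the BUB pair, the kinase gene rose and the partner gene did not. The levels of bub-1 (chromosome I, 7251941 to 7255223) were 249 and 196 CPM for N2, 304 and 275 CPM for WT, and 498 and 431 CPM in SIN. Both SIN libraries were above all 4 others. The rise over WT was 1.60-fold (log2 fold change 0.68 ± 0.14, adjusted p = 0.0194) and the rise over N2 was 2.09-fold (1.06 ± 0.14, adjusted p = 0.00514). The levels of bub-3 (chromosome II, 13726062 to 13729610) were 145 and 157 CPM for N2, 173 and 172 CPM for WT, and 154.1 and 141.9 CPM in SIN. Both SIN libraries were below WT and overlapped N2. The difference from WT, -0.22 ± 0.09 on the log2 scale, did not pass in the fit of all libraries (adjusted p = 0.106), but passed as a fall when only the SIN and WT libraries were fitted (-0.22, adjusted p = 0.035), without N2 replicate 1 (adjusted p = 0.0278) and without N2 replicate 2 (adjusted p = 0.0265).

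The Mad genes divided in the same way. Expression of mdf-1 (chromosome V, 9541782 to 9544226), the Mad1 gene, was 147 and 130 CPM for N2, 187 and 176 CPM for WT, and 298 and 262 CPM in SIN. The SIN libraries were above all others, 1.54-fold over WT (log2 fold change 0.63 ± 0.11, adjusted p = 0.0105) and 2.02-fold over N2 (1.01 ± 0.11, adjusted p = 0.00197). Its binding partner mdf-2 (chromosome IV, 2636227 to 2641125), the Mad2 gene, was at 122 and 123 CPM for N2, 135 and 128 CPM for WT, and 125 and 107 CPM in SIN. The difference of mdf-2 from WT was -0.18 ± 0.10 on the log2 scale and did not pass (95% interval -0.41 to 0.06, adjusted p = 0.239). The Mad3 gene san-1 (chromosome I, 6407526 to 6409212) was at 76.4 and 73.3 CPM for N2, 85.8 and 87.8 CPM for WT, and 80.4 and 66.2 CPM in SIN. The SIN libraries of san-1 lay below WT without passing (-0.24 ± 0.11, adjusted p = 0.16). Of the 9 genes, san-1 was the only one overlapped by another coding gene, ZC328.3 on the other strand, which had 444 to 689 reads per library against 2373 to 3533 for san-1.

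**Figure D2:**
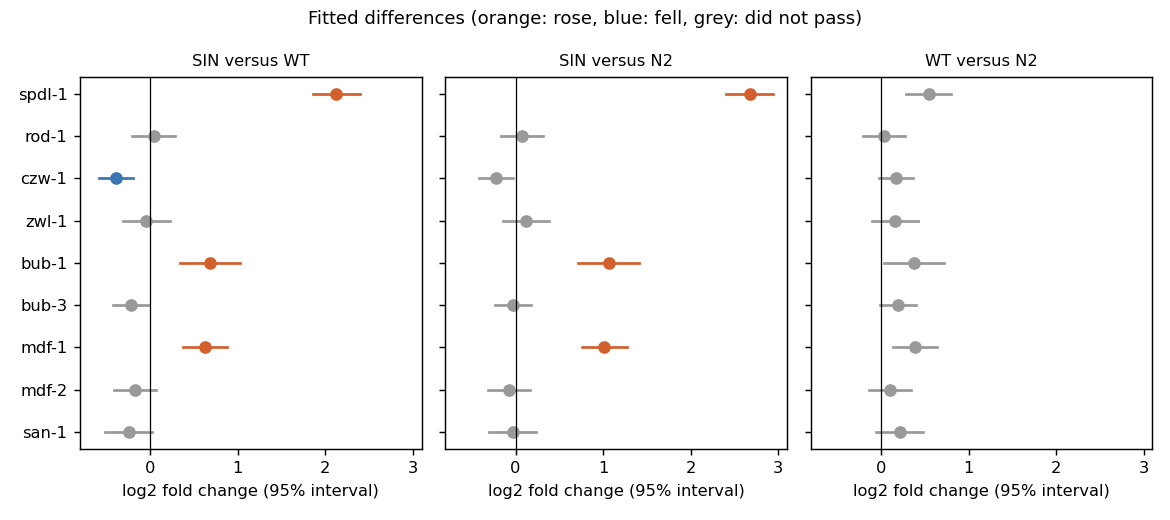
Fitted log2 fold changes (x axis) with their 95% intervals, unadjusted for multiple tests, for the 9 genes (y axis) in the 3 comparisons; orange marks a rise and blue a fall past the adjusted test. The spdl-1 interval of 1.86 to 2.39 in SIN versus WT lies to the right of that of each other member.

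In 8 of the 9 genes, zwl-1 being the exception, the SIN and WT libraries did not overlap, but this was also true of 73.4% of all tested genes. The calls of bub-1, mdf-1 and czw-1 were lost whenever a single WT or SIN library was left out, with adjusted p from 0.0814 to 0.133, from 0.0528 to 0.0929 and from 0.08 to 0.172. Their log2 fold changes then stayed between 0.57 and 0.78, between 0.53 and 0.71, and between -0.43 and -0.36. In those fits 1 group has a lone library, which is assumed to vary like the others, and the calls over all genes dropped from 3922 to between 361 and 609. In the authors' deposited table the log2 fold change was 2.05 for spdl-1, 0.64 for bub-1, 0.60 for mdf-1 and -0.39 for czw-1, with adjusted p of 3.27e-47, 0.0007, 9.55e-05 and 0.000465. In the authors' deposited table the other 5 members had adjusted p between 0.121 and 0.901.

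Against N2, spdl-1, bub-1 and mdf-1 again rose in SIN, and none of the other 6 members passed; 25.6% of all tested genes were called in this comparison, 12.3% as rises. The SIN and N2 libraries did not overlap in 4 of the 9 genes (those 3 and czw-1), and in 62.7% of all tested genes. The SIN libraries are shared by both comparisons, so these are not independent. Only the rise of bub-1 over N2 was lost in an alternative, without SIN replicate 1 (log2 fold change 0.95, adjusted p = 0.0628). In the same SIN libraries the 5 sperm markers summed to 15.5 and 16.9 CPM, against 5.22 to 8.04 CPM in the WT and N2 libraries, whereas the 4 embryo markers summed to 11.1 and 10.1 CPM in SIN, 11.4 CPM in each WT library, and 19.06 and 11.03 CPM in N2. The part of these markers in the rises was not tested.

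In WT versus N2, 0 of the 9 genes passed edgeR's quasi-likelihood test, where 0.11% of all tested genes did (0.0454% as rises and 0.0649% as falls). With DESeq2, 2 of the 9 passed, but that test called 1164 genes in this comparison. The 3 genes that rose in SIN had the largest differences: log2 fold changes of WT over N2 were 0.55 ± 0.11 for spdl-1 (adjusted p = 0.103), 0.39 ± 0.11 for mdf-1 (adjusted p = 0.151) and 0.38 ± 0.14 for bub-1 (adjusted p = 0.216). For spdl-1 and mdf-1 the difference passed with DESeq2 (adjusted p = 0.00205 and 0.0309), with no low-count filter (0.000148 and 0.0105), without N2 replicate 1 (0.00767 and 0.0293) and without N2 replicate 2 (0.0102 and 0.0452). With the replicate number as a block, spdl-1 passed (adjusted p = 0.0394) and the other 8 did not. For bub-1 it passed with no low-count filter (adjusted p = 0.0137) and without N2 replicate 1 (0.0231). All 9 fitted differences were positive, from 0.04 for rod-1 upwards, except that rod-1 turned to -0.02 with upper-quartile scaling and to -0.06 without N2 replicate 2. The median of the 9 was 0.19, against -0.03 over all tested genes. In 8 of the 9 genes, all but rod-1, the WT libraries lay above the N2 libraries; 53.1% of all tested genes did not overlap between these strains, in either direction.

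Scaled to gene length, the order of the members was different in SIN. In RPKM, which divides reads by gene length and library total, bub-3 was the most abundant member in N2 (124 and 125 RPKM) and in WT (141 and 138 RPKM), followed by czw-1, and spdl-1 was the least abundant (31.4 and 24.9 RPKM in N2, 41.1 and 39.0 RPKM in WT). In SIN spdl-1 was the most abundant of the 9, at 201 and 176 RPKM, followed by bub-1 at 171 and 145 RPKM. The next were mdf-1 (141.8 and 122.7 RPKM) and bub-3 (135 and 123 RPKM), which overlapped. At the lower end of the order in SIN, rod-1, zwl-1 and san-1 lay between 50.8 and 69.5 RPKM, and neighbours among them overlapped. In N2 the genes from the third place to the eighth, namely mdf-2, bub-1, mdf-1, rod-1, san-1 and zwl-1, overlapped with their neighbours within that stretch, and all lay above spdl-1. The summed RPKM of the 9 genes was 678 and 596 in N2, 741 and 712 in WT, and 1027 and 898 in SIN, of which spdl-1 made up 4.63% and 4.18%, 5.55% and 5.48%, and 19.5% and 19.6%.

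Ratios between partners show the same shift within each library. The RPKM of mdf-1 relative to mdf-2 was 0.821 and 0.722 in N2, 0.946 and 0.936 in WT, and 1.62 and 1.67 in SIN. The ratio of bub-1 to bub-3 was 0.674 and 0.486 in N2, 0.686 and 0.628 in WT, and 1.26 and 1.19 in SIN. For Spindly relative to the RZZ subunit rod-1 the values were 0.486 and 0.483 in N2, 0.698 and 0.682 in WT, and 3.09 and 2.77 in SIN. Each of these ratios was below 1 in every N2 and WT library and above 1 in both SIN libraries. Within RZZ the ratio of rod-1 to czw-1 moved less, from 0.525 and 0.522 in WT to 0.691 and 0.721 in SIN. The ratio of san-1 to mdf-2 stayed between 0.666 and 0.765 over all 6 libraries. With 2 libraries a group an exact two-sided permutation test cannot go below p = 0.333, so these ratios were not tested, and their differences show unequal change of the partners only.

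**Figure D3:**
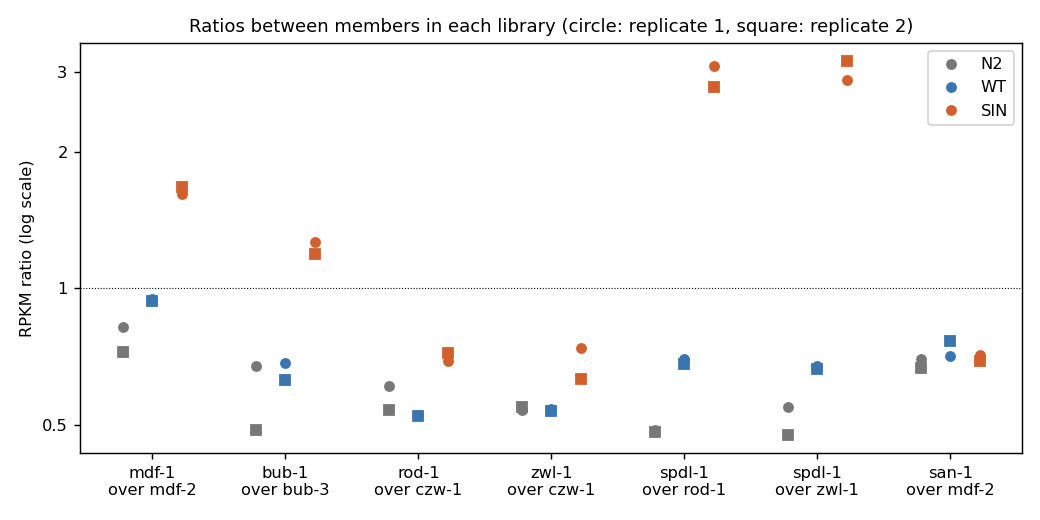
RPKM ratios between members of the same complex or pathway step (x axis) in each library (y axis, log scale), with circles for replicate 1 and squares for replicate 2. The ratios of mdf-1 to mdf-2, bub-1 to bub-3 and spdl-1 to rod-1 or zwl-1 exceed 1 in the SIN libraries alone, with spdl-1 over rod-1 at 3.09 and 2.77.

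All 9 genes are listed in both deposited sets of 22G RNA counts, which describe genes in other studies and not these 6 libraries. In the authors' column of 22G reads from a study by Claycomb (of unknown scaling), bub-1 had 884 reads, rod-1 721, spdl-1 635 and mdf-1 493. The other 5 had fewer: zwl-1 188, czw-1 161, bub-3 140, mdf-2 73.1 and san-1 60.8. The 3 genes that rose in SIN are thus among the 4 members with the most 22G reads, and rod-1, the second in that order, did not pass. Out of 4133 listed genes bub-1 ranked 23, rod-1 46, spdl-1 58 and mdf-1 128, while san-1 ranked 2910. In the column from a study by Conine, 22G RNA in a CSR-1 immunoprecipitate was 287 RPM (reads scaled to library size) for bub-1, 268 for spdl-1, 185 for rod-1 and 184 for mdf-1, and 15.9 to 151 for the other 5. Enrichment over the input, if the deposited score is a fraction, was similar across the members, from 6.01-fold for san-1 to 12.3-fold for bub-3. It did not follow the order of the rises.

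Among the genes listed with 22G reads, more reads went with a rise in SIN. Of the 128 tested genes with at least as many Claycomb reads as mdf-1, a limit taken from the members after their values were seen, 97 rose (75.8%), 2 fell and 29 did not pass. Among these genes 15 had a larger log2 fold change than spdl-1 and 18 a smaller one than rod-1. Of the 3196 tested genes listed with no more reads than zwl-1, 6.51% rose and 31.9% fell. The order did not extend to genes without such reads: of 9763 tested genes listed in neither 22G column, 9.85% rose and 6.76% fell, with a median log2 fold change of 0.13 against -0.16 for the 4114 genes with Claycomb reads. Spearman's rank correlation between 22G reads and the log2 fold change of SIN over WT was 0.53 over 4114 listed genes and 0.80 over the 9 members, given as a description since all genes were measured in the same libraries. Divided by the RPKM of WT, as the authors' table also gives them, 22G reads were highest for spdl-1 (15.8). Then came rod-1 (12.4), bub-1 (9.65) and mdf-1 (6.20), with at most 3.15 for the other 5. The WT level divides both this ratio and the fold change of SIN over WT, so a low WT level raises both. In WT spdl-1 was the lowest of the 9 (40.1 RPKM). Deposited marks of earlier studies list 7 of the 9 genes as germline expressed (all but spdl-1 and rod-1), bub-1 and mdf-2 as germline specific, and 6 as germline enriched (spdl-1, czw-1, bub-1, mdf-1, mdf-2 and san-1). Of 2713 tested germline-enriched genes, 20.9% rose and 22.6% fell in SIN versus WT, and of 1056 germline-specific genes 7.1% rose and 41.5% fell.

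**Figure D4:**
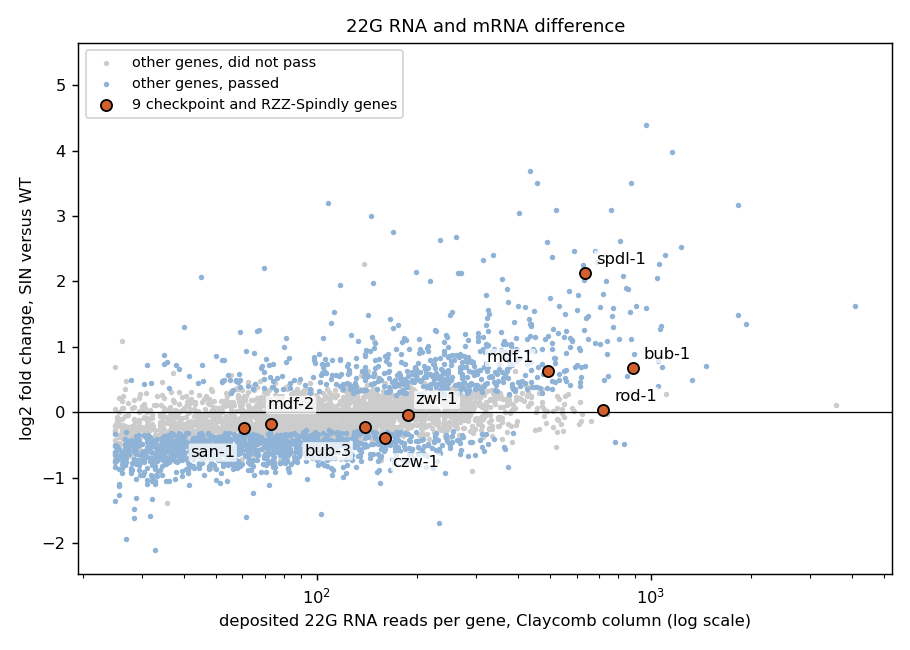
Log2 fold change of SIN over WT (y axis) against deposited 22G RNA reads per gene from the Claycomb column (x axis, log scale) for the 4114 genes listed and tested, with the 9 members in orange. Of the 4 members at the right, spdl-1, bub-1 and mdf-1 lie above 0 and rod-1 lies at 0.04.

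Across the 6 libraries, the tested gene whose pattern was most like that of bub-1 was mdf-1, with a root-mean-square difference of 0.06 in log2 CPM after centring each gene on its mean. The next was hcp-1, a CENP-F-like kinetochore protein that acts with BUB-1 in recruiting the microtubule regulator CLASP, at 0.08; hcp-1 rose from 363 ± 19 to 590 ± 34 CPM (adjusted p = 0.0243) and has 1462 Claycomb reads. The third was the F-box gene fbxa-206, also at 0.08, with 201 Claycomb reads against 884 for bub-1. For mdf-1 the 3 most alike were C53D5.1 (0.04), the meiotic gene him-19 (0.04) and bub-1 (0.06). Of these, C53D5.1 is not listed in the Claycomb column and him-19 has 69.5 reads, against 493 for mdf-1. For spdl-1 they were duo-1 (0.08), Y39G10AR.7 (0.08) and C07F11.2 (0.08). The first 2, duo-1 and Y39G10AR.7, rose 4.06-fold and 4.90-fold and have 630 and 692 Claycomb reads, near the 635 of spdl-1. The third, C07F11.2, was at only 0.39 CPM in WT and 1.97 CPM in SIN and is not listed in the Claycomb column. Genes most like czw-1 were B0361.3 (0.01, 58.3 Claycomb reads), Y55D9A.2 (0.02, 38.3 reads) and srf-3 (0.02, not listed). Of these, B0361.3 and Y55D9A.2 fell by 0.41 and 0.36 on the log2 scale. Both calls, like that of hcp-1, were lost on leaving out any 1 library of WT or SIN, and that of Y55D9A.2 also with upper-quartile scaling (-0.22, adjusted p = 0.0757). On the other strand B0361.3 overlaps pho-5, Y39G10AR.7 overlaps mcm-4 and him-19 overlaps Y95B8A.6. With 3 strains and 2 libraries each, many genes share such simple patterns.

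The genes around the checkpoint moved in both directions, as did all tested genes, of which 12.1% rose and 13.3% fell in SIN versus WT. Of 8 tested partners and regulators, 3 rose and 1 fell in SIN versus WT (median log2 fold change 0.01, against 0.04 over all genes). The rises were hcp-1 (0.70 ± 0.16), its relative hcp-2 (0.59 ± 0.11, adjusted p = 0.0145) and the polo kinase gene plk-1 (0.38 ± 0.09, adjusted p = 0.0249). The fall was pch-2, which encodes an enzyme that remodels Mad2-type proteins: it was at 92.9 and 72.8 CPM for N2, 97.4 and 88.4 CPM for WT, and 43.9 and 35.1 CPM in SIN, a log2 fold change of -1.23 ± 0.16 (adjusted p = 0.00583). Both SIN libraries of pch-2 were below all others; it overlaps emb-27 on the other strand, as hcp-1 overlaps ZK1055.6. Its fall from WT was lost without SIN replicate 2.

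In the outer kinetochore network that binds microtubules and carries BUB-1, 2 of 12 genes rose and 2 fell (median -0.07). Over all tested genes 12.1% rose and 13.3% fell, so these counts are near what all genes gave. The scaffold gene knl-1, to whose product BUB-1 binds, rose from 248 ± 8.1 to 404 ± 21 CPM (log2 fold change 0.70 ± 0.10, adjusted p = 0.00674), and knl-3 rose from 114 ± 0.04 to 189 ± 25 CPM (0.73 ± 0.11, adjusted p = 0.00716); knl-3 overlaps T10B5.3 and T10B5.4 on the other strand. The falls were kbp-1 (-0.67 ± 0.15, adjusted p = 0.0208), which overlaps K04C2.8 on the same strand, and kbp-5 (-0.46 ± 0.12, adjusted p = 0.0317). The fall of kbp-5 was lost with upper-quartile scaling. In SIN versus N2, neither kbp-1 (-0.30, adjusted p = 0.167) nor kbp-5 (-0.35, adjusted p = 0.0663) passed. There knl-1 (0.86, adjusted p = 0.00274) and knl-3 (1.41, adjusted p = 0.000595) again rose. Of the Claycomb reads, knl-1 has 636 and knl-3 384, against 41.7 for kbp-5.

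Dynein and its cofactor dynactin, the motor that Spindly brings to the kinetochore, had 1 rise and 5 falls among 19 genes (median -0.18). Over all tested genes 12.1% rose and 13.3% fell. Every call in this list was of a dynactin gene, and no dynein subunit gene passed (dhc-1 0.28 ± 0.09, adjusted p = 0.0671). The rise was in dnc-1, the large dynactin subunit, from 160 ± 1.7 to 259 ± 0.68 CPM (0.70 ± 0.07, adjusted p = 0.00276). Other dynactin genes fell, among them dnc-2 (-0.55 ± 0.09, adjusted p = 0.011), arp-11 (-0.53 ± 0.09, adjusted p = 0.0122) and dnc-5 (-0.67 ± 0.14, adjusted p = 0.0183). In SIN versus N2, dnc-1 again rose (0.65, adjusted p = 0.00269) and dnc-2 again fell (-0.50, adjusted p = 0.0135). There arp-11 (-0.07, adjusted p = 0.597) and dnc-5 (-0.30, adjusted p = 0.157) did not pass. The mean of arp-11 was 68.2 CPM in N2, 93.7 CPM in WT and 64.7 CPM in SIN. Each of these 4 genes overlaps a coding gene on the other strand (rbr-2, C28H8.2, atic-1 and Y71F9AL.8 in that order). If strand was not used, reads in an overlap may have been added or dropped, which is not stated. Of the anaphase-promoting complex, which the checkpoint holds back, with separase and the B cyclins, 3 of 17 genes rose and 4 fell (median -0.07). Its subunit gene mat-2 rose from 213 ± 0.3 to 427 ± 33 CPM (2.00-fold, adjusted p = 0.00243) and emb-30, which overlaps F54C8.1 on the other strand, rose by 0.47 ± 0.08 (adjusted p = 0.0111). The small subunit genes apc-11 and apc-10 fell by 0.82 and 0.81 on the log2 scale (adjusted p = 0.011 and 0.0119). In SIN versus N2, apc-11 again fell (-0.62, adjusted p = 0.0234), but apc-10 did not pass (-0.29, adjusted p = 0.181). There mat-2 (1.02, adjusted p = 0.00178) and emb-30 (0.58, adjusted p = 0.00557) again rose. In WT versus N2 edgeR's quasi-likelihood test called 0 genes of these 4 lists, and 0.11% of all tested genes. Leaving out any single WT or SIN library reduced the SIN versus WT calls to at most 3 in each list, and mat-2 was the only example named here from the lists whose call held each time.

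**Figure D5:**
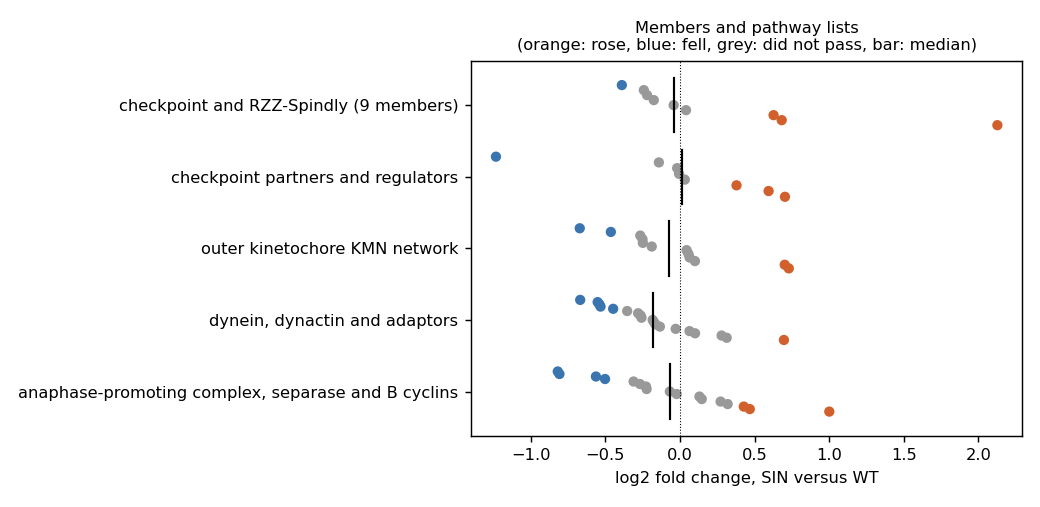
Log2 fold change of SIN over WT (x axis) for each tested gene of the 9 members and of the 4 pathway lists (y axis), with orange for rises, blue for falls, grey for genes that did not pass, and a bar at the median. Each list holds genes on both sides of 0; spdl-1 at 2.13 lies to the right of every other gene shown.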

How the data were processed

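Poly(A)-selected RNA was sequenced as 50-base single reads. The deposited table holds raw read counts per gene, per the file headers; per the submitters' processing notes the build was WBcel235 and the tools STAR, HTSeq, DESeq2 and DESeq, with no roles stated. How the counting treated strand is not stated in any source here. The authors' RPKM is 1 value per group, and the mean of library RPKM recomputed from counts and deposited gene lengths matched it for 100% of genes (relative tolerance 1e-06). The authors also deposited their own log2 fold change of SIN over WT, with its adjusted p-value. Per the file headers, the 22G RNA columns come from other studies: Claycomb reads, their ratio to WT RPKM, RPM in a CSR-1 immunoprecipitate. Also per the file headers, a further column was deposited as an enrichment score, assumed here to be a fraction s over input. How this assumed fraction was calculated before it was deposited is not stated in any source here. Under that assumption, fold enrichment was taken as s over 1 minus s. Coordinates and overlaps come from the Ensembl release of that build, and overlaps were taken between whole gene spans, introns included.

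Counts were filtered with filterByExpr (minimum count 10, total 15), TMM-scaled and tested with edgeR 4.0.16 (limma 3.58.1, R 4.3.3) in a robust quasi-likelihood fit of all 6 libraries with 3 group means (3 residual degrees of freedom), after tests on simulated data. Standard errors are the log2 fold change divided by the root of F. DESeq2 1.42.0, other scalings, no filter, fewer libraries and a replicate block were alternatives. All members are named; each list gives its 4 genes with the smallest p, and each called member its 3 most similar genes (log2 CPM, prior count 2). Members and lists were chosen with earlier results of these data known. In the lists, 1 gene, cmt-1, had no row under that name. Both libraries of each strain differed by more than sampling noise (chi-square per degree of freedom of at least 8.86).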

Additional observations from a re-analysis of the deposited data

How the results depend on the processing

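Over 12 alternative settings, the 27 member comparisons gave 324 values, of which 295 kept their side of the threshold, 14 lost a call and 15 gained one; no called value changed sign. Leaving out 1 library gave 1 to 5 called members in SIN versus WT (4 reported), 2 to 4 in SIN versus N2 (3 reported) and 0 to 3 in WT versus N2 (0 reported). In WT versus N2, 3 members passed with no low-count filter, 2 with DESeq2 and 1 with the replicate number as a block (spdl-1, adjusted p = 0.0394).

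Calls over all genes moved more. In SIN versus WT, 3922 genes were called, 6521 with only those 2 strains fitted, and 361 to 6751 with a library left out. In SIN versus N2, 3942 were called, 5922 with no low-count filter, 1914 with only those 2 strains, and 704 to 6028 with a library left out; rises were 48.2% of the calls, and 59.6% with upper-quartile scaling. In WT versus N2, 17 were called, 29 with RLE scaling, 10 with upper-quartile scaling, 2217 with no low-count filter, 1164 with DESeq2, 253 with the replicate block, 0 with only those 2 strains, and 0 to 4201 with a library left out. The cause was not tested. Same-numbered libraries deviated together across genes (r = 0.24 to 0.38), but the labels give the numbers no meaning, so the block is given as an alternative only. Among genes with at least the 22G reads of mdf-1, 64 to 104 rose over all settings. The settings for lists and other named genes were added after the data were seen. With 2 libraries a strain, the spread between libraries and not read depth limits the precision.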

Other observations

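Hypodermal and muscle transcripts differed between libraries of one strain more than the checkpoint genes did. The 3 hypodermal markers summed to 291 and 1215 CPM in N2 replicates 1 and 2, 769 and 1139 CPM for WT, and 278 and 676 CPM in SIN, and the 3 muscle markers to 1006 and 2027 CPM, 1494 and 1769 CPM, and 962 and 1644 CPM.

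The place of rod-1 among the members depends on whether 22G reads are taken per gene or per kilobase of gene. Its length of 6343 bases is the largest of the 9. Per kilobase, computed after the values above were seen, Claycomb reads were 401 for spdl-1, 289 for bub-1, 224 for mdf-1, 117 for bub-3 and 114 for rod-1, and 45.1 to 72.0 for the other 4, so that the 3 members that rose in SIN are the 3 highest. In the CSR-1 immunoprecipitate rod-1 had 29.2 RPM per kilobase, rank 2219 of 5517 genes, against 169 for spdl-1 (rank 37), 93.7 for bub-1, 83.4 for mdf-1 and 82.8 for bub-3. Over all listed genes the per-kilobase values did not go with the rise more closely: of 121 tested genes with at least the per-kilobase Claycomb reads of mdf-1, 55.4% rose, against 75.8% of the 128 genes chosen by reads per gene, and the rank correlation with the log2 fold change was 0.29 against 0.53. Claycomb reads themselves had a rank correlation of 0.43 with gene length over 4133 genes. No source here says whether the deposited reads were already scaled to length.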
